A study of Homo sapiens with 12 samples.

Results

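HCC827 lung cancer cells that had shared their medium with MRC-5 fibroblasts were compared with HCC827 cells grown alone, both without gefitinib. The comparison used 6 of the study's 12 bead arrays, chosen by their titles: 3 of the co-culture and 3 of the monoculture. HCC827, an established line from a human non-small cell lung tumour, depends on a mutant EGFR kinase, and MRC-5 is a line of normal human lung fibroblasts. The co-culture arrays are labelled only with MRC-5, and they do not say whether a vehicle was added. The monoculture arrays are labelled DMSO, the vehicle. Per the labels' protocols the fibroblasts sat across inserts with 1 µm pores for 48 h, in EMEM with 10% FCS, whereas routine growth was in RPMI 1640 with 10% FCS. For that period the labels name no medium for the monoculture cells. The 6 other arrays carried gefitinib, an EGFR kinase inhibitor, at 0.5 µM, 3 in co-culture and 3 in monoculture, and entered the same model. Culture, medium and the set of arrays move together in this design and cannot be told apart in any result below. Each group is 1 cell line, and nothing in the labels says that the 3 arrays of a group came from separate cultures, so p-values measure the spread between these arrays, which may be technical.

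Cells that run short of an amino acid, or that meet other stress on protein synthesis, raise the translation of the transcription factor ATF4, which switches on genes for amino acid synthesis, uptake and tRNA charging. BMP ligands, sensed by receptor kinases at the cell surface, act through SMAD factors to induce the ID genes, whose products block differentiation factors. Fibroblasts are known as sources of growth factors, matrix proteins and metabolites for neighbouring epithelial cells.

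Of 48107 probes, between 45.3% and 46.3% were detected on the co-culture arrays and between 43.4% and 45.4% on the monoculture arrays. Across genes, which are not independent replicates, arrays of the co-culture correlated with those of the monoculture at r between 0.991 and 0.993. Within the co-culture r lay between 0.994 and 0.995. The labelled cell type carried its markers: 24 of 32 keratins and other epithelial markers were detected on all co-culture arrays and 26 of 32 on all monoculture arrays.

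Differences are log2 of the authors' normalized intensity, co-culture minus monoculture, with the standard error of the limma model, and a gene was called at a Benjamini-Hochberg adjusted p under 0.05. Among 13577 genes tested, 903 (6.65%) were called, 384 higher (2.83%) and 519 lower (3.82%) in co-culture. The split turned over with array median centring, to 495 higher and 379 lower, while the median difference of all genes was -0.02 with the authors' scaling. Most differences were small, since 2 genes were called at 2-fold or more higher and 4 at 2-fold or more lower. These values appear to hold no background subtraction, with array medians of 103.6 to 104.7. A difference of a dim gene would then be understated on this scale. With background-corrected scanner intensities (limma's neqc), 480 genes were called, 223 higher (1.64%) and 257 lower (1.89%).

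**Figure D1:**
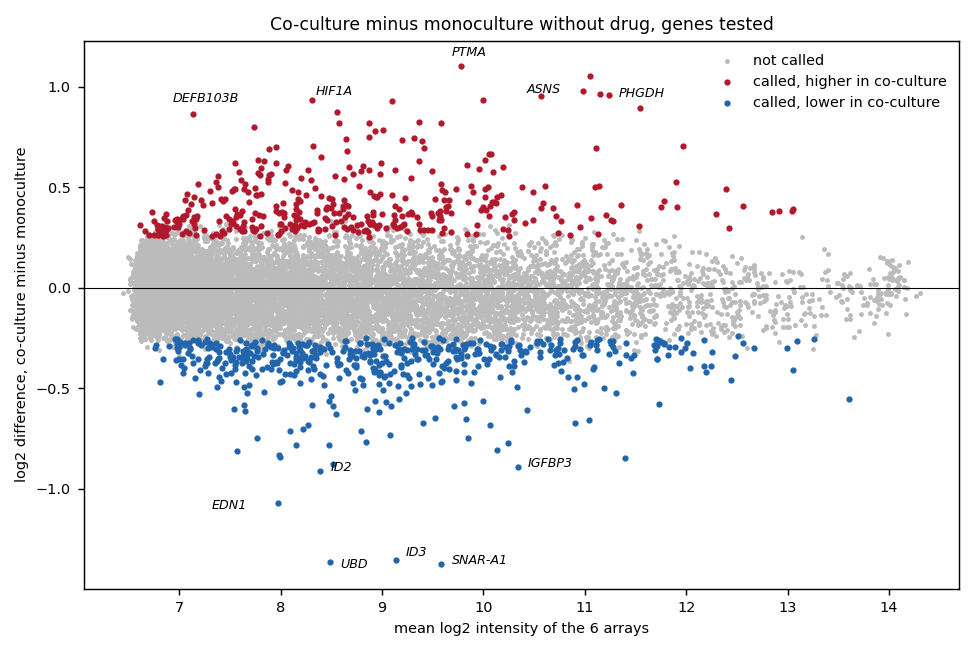
Each point is a gene: the mean log2 intensity of the 6 arrays (horizontal) against the log2 difference, co-culture minus monoculture, without drug (vertical). Called genes are red where higher in co-culture (384) and blue where lower (519), and most of them lie within 1 log2 unit of 0.

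Genes of serine synthesis and of the ATF4 programme included several called rises and 0 called falls, with background correction as well as on the authors' scale. Of 10 tested genes of serine and one-carbon synthesis, 5 rose and 0 fell, and their median difference was 0.24 against -0.02 for all genes tested. Of 12 genes for other amino acid synthesis, 3 rose and 0 fell, with a median of 0.10 (0.16 with background correction). Among 17 ATF4 stress effectors, 7 rose and 0 fell, with a median of 0.14 (0.37 with background correction, where the median of all genes was -0.03). Of 20 amino acid transporters 4 rose and 0 fell, and of 14 cytosolic aminoacyl-tRNA synthetases 3 rose and 0 fell. None of the 16 mitochondrial synthetases tested was called. Across all genes tested, 2.83% were called higher and 3.82% lower, or 6.65% either way. In lists this short, 0 falls, and 0 calls among the mitochondrial synthetases, are near those shares.

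The promoters of 5 of these genes are shown, since an ATF4 response element can be looked for in them. Each is the 250 bases before the gene's start on its own strand, from RefSeq (GRCh38.p14), and capitals mark the letters TGATGNAA, searched on both strands as the only motif (in AARS1 they stand as the reverse complement). ASNS, AARS1 and MTHFD1L are the called genes of these lists that hold it, and PHGDH and PSAT1 are the most raised genes of serine synthesis.
ASNS, chr7:97872409-97872658, minus strand: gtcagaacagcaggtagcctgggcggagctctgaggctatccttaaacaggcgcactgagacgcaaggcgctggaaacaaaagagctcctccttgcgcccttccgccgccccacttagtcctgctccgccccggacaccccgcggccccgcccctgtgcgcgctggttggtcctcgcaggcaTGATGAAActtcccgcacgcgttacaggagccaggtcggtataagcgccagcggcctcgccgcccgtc
AARS1, chr16:70289507-70289756, minus strand: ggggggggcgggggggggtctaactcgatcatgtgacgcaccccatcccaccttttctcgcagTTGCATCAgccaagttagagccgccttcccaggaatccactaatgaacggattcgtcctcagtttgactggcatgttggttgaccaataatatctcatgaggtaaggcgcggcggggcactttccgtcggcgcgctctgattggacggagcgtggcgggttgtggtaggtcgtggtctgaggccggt
MTHFD1L, chr6:150866236-150866485, plus strand: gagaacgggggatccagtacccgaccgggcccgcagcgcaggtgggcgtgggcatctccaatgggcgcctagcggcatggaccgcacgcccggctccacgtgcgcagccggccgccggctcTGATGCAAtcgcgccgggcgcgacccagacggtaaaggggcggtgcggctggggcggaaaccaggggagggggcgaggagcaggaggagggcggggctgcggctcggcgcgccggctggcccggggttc
PHGDH, chr1:119711684-119711933, plus strand: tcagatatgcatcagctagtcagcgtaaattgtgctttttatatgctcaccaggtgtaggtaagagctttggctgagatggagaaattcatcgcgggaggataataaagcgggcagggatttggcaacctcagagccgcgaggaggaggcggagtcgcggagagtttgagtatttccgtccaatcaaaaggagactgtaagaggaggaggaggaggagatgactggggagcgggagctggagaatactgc
PSAT1, chr9:78296875-78297124, plus strand: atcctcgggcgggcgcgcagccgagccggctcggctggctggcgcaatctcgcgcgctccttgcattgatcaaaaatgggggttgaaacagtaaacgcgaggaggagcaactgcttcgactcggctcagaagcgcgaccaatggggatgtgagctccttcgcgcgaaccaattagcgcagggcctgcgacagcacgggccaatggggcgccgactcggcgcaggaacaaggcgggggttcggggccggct
The motif was in 3 of the 19 called members that had a promoter in the table, 15.8%, and in 5 of 42 members that were tested and not called higher, 11.9%. It was in 176 of 10704 promoters of genes tested (1.64%) and in 870 of 27305 promoters of the table (3.19%). In ASNS it lay 68 bases before the start. No test was made of these shares, and a match describes letters only.

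ASNS, which makes asparagine, had intensities of 2850.3, 2851 and 2797 on the co-culture arrays, against 1338, 1529 and 1457 on the monoculture arrays. All co-culture arrays were above all monoculture arrays. Non-overlap was required of the largest rises and falls when they were named, so for those genes it is not separate evidence. The difference was 0.98 ± 0.077 (adjusted p = 5.8e-09), or 1.97-fold. PHGDH, the first enzyme of serine synthesis from glycolysis, read 3516, 3419 and 3147 in co-culture and 1675, 1762 and 1746 in monoculture. PSAT1, the next enzyme of that route, read 3209, 3261 and 3026 in co-culture and 1545, 1686 and 1644 in monoculture. Neither gene's groups overlapped, which held for 9.63% of genes tested in this direction, and the differences were 0.96 ± 0.085 (adjusted p = 3.4e-08) and 0.96 ± 0.084 (adjusted p = 3.4e-08). The mitochondrial one-carbon enzymes followed at lower sizes: MTHFD2 rose by 0.51, SHMT2 by 0.43 and MTHFD1L by 0.28.

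PCK2, the mitochondrial enzyme that makes phosphoenolpyruvate, had 426, 449 and 445 in co-culture and 227, 229 and 235 in monoculture, without overlap. Its difference was 0.93 ± 0.083, and 0.35 as the mean of its probes. CBS, which joins homocysteine and serine, rose by 0.50. The mRNA of ATF4 itself rose by 0.38 ± 0.078 (adjusted p = 0.0026). TRIB3, a pseudokinase induced by ATF4 and acting back on it, had 2823, 2708 and 2892 in co-culture, against 1640.2, 1789 and 1774 in monoculture. Its groups stood apart, with a difference of 0.70 ± 0.086. The dimer partner CEBPG rose by 0.61, the stress factor DDIT3 (CHOP) by 0.59, the mTORC1 inhibitor DDIT4 by 0.49, the growth factor VEGFA by 0.41 and the factor CEBPB by 0.41.

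Among transporters, the glutamine carrier SLC1A5 rose by 0.55 and the glycine carrier SLC6A9 by 0.53 (0.94 with background correction and 0.26 as the mean of its probes). Both chains of the large neutral amino acid exchanger rose, SLC3A2 by 0.51 and SLC7A5 by 0.38. The called synthetases were those for tyrosine (YARS1, 0.36), tryptophan (WARS1, 0.34) and alanine (AARS1, 0.30). The calls of MTHFD1L and AARS1 were lost with background correction (adjusted p = 0.072 and 0.11) and without any of 4 of the 6 arrays, taken singly.

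**Figure D2:**
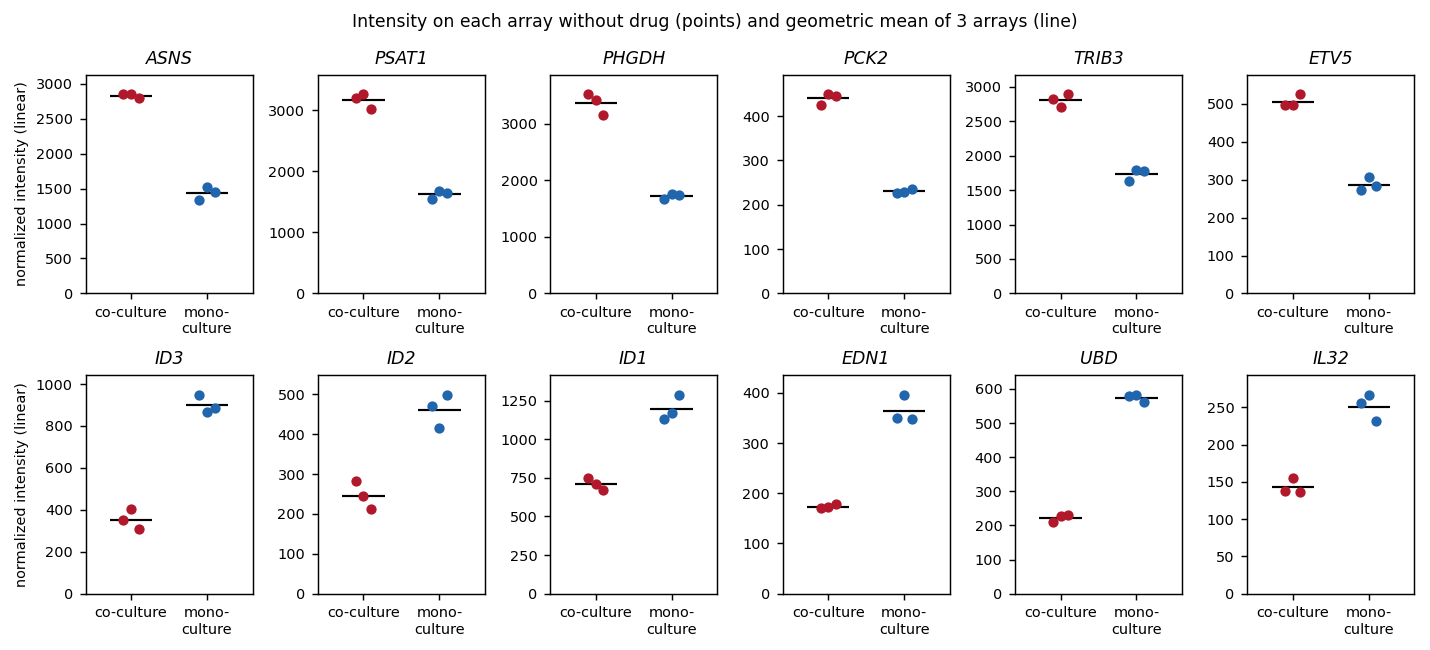
Normalized intensity (linear, from 0) on each of the 3 co-culture arrays (red, left) and the 3 monoculture arrays (blue, right), with lines at geometric means, for 6 genes that rose and 6 that fell. The groups do not overlap for any of the 12 genes, which for most of them was a condition of being named.

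Output genes of the ERK pathway, the kinase cascade below EGFR, rose in 9 of 26 tested and fell in 0. Over all genes tested, 2.83% were called higher and 3.82% lower. The median of the ERK list was 0.13. With background correction 5 of its genes rose and the median was 0.25. ETV5, an ETS factor induced by ERK, had 496, 496 and 525 in co-culture and 272, 306 and 283 in monoculture. The groups did not overlap, and the difference was 0.82 ± 0.082 (adjusted p = 2.7e-07), with 0.48 as the mean of its probes. The immediate early factor FOS rose by 0.50 (0.99 with background correction), PHLDA1 by 0.42, the membrane protein EMP1 by 0.37, the ERK phosphatase DUSP5 by 0.36 and the chemokine CXCL8 by 0.36. The calls of PHLDA1, EMP1 and DUSP5 were lost with background correction (adjusted p = 0.06, 0.076 and 0.1), that of CXCL8 as the mean of its probes (adjusted p = 0.052), that of EMP1 without co-culture array 3, and that of DUSP5 without co-culture array 3 or monoculture array 3.

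The receptor EGFR differed by 0.14 ± 0.090 (adjusted p = 0.43), and by 0.01 as the mean of its probes and 0.04 without co-culture array 3. The HGF receptor MET differed by 0.27 ± 0.096 (adjusted p = 0.1), and was called without monoculture array 1 (0.38, adjusted p = 0.024) or co-culture array 1 (0.35, adjusted p = 0.049). The transcription factor MYC differed by 0.07 ± 0.087 (adjusted p = 0.71), by 0.26 as the mean of its probes, where it was called (adjusted p = 0.033), by 0.12 without co-culture array 1 and by 0.04 without co-culture array 3. Of 12 ErbB receptors and ligands, 1 rose and 1 fell (2.83% and 3.82% over all genes tested). HBEGF, an EGFR ligand, had 274, 301 and 306 in co-culture and 431, 412 and 460.1 in monoculture. All co-culture arrays were lower, by -0.57 ± 0.087 as a signed difference (adjusted p = 1.2e-04). EREG, another EGFR ligand, differed by 0.38 ± 0.089 (adjusted p = 0.0079), a call lost with background correction (0.68, adjusted p = 0.09) and without monoculture array 3.

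ID1, ID2 and ID3 fell. Of 19 BMP pathway and ID genes, 0 rose and 6 fell, with a median of -0.06 (-0.11 with background correction, where 3 fell, -0.22 with a stricter detection filter, -0.04 with the mean of a gene's probes and -0.03 with array median centring), and 3.82% of all genes tested were called lower. ID3 had 350.2, 404 and 308 in co-culture, against 949, 869 and 884 in monoculture. The co-culture arrays were all lower, with a difference of -1.35 ± 0.096 (adjusted p = 1.0e-09). ID2 had 281, 245 and 213 in co-culture and 472, 414 and 499 in monoculture, and ID1 had 747, 711 and 673 in co-culture and 1129.8, 1170.5 and 1288 in monoculture. Neither overlapped, which held for 15.7% of genes tested in this direction, and the differences were -0.91 ± 0.095 and -0.75 ± 0.081 (adjusted p = 4.6e-07 and 8.1e-07). The BMP pseudoreceptor BAMBI (-0.32) and the activin antagonist FST (-0.28) were called at small sizes and were not called with background correction (adjusted p = 0.097 and 0.16). Each also lost its call without monoculture array 3 or co-culture array 3, BAMBI without monoculture array 1, and FST without monoculture array 2 or co-culture array 2, or with array median centring.

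TGF-beta genes also fell, 4 of 21 tested with 0 rising and a median of -0.06 (-0.12 with background correction, -0.03 with array median centring). For all genes tested the shares called were 3.82% lower and 2.83% higher. PMEPA1, a feedback inhibitor of TGF-beta signalling, had 342, 369 and 328 in co-culture and 594, 549.6 and 559 in monoculture. The groups did not overlap, and the difference was -0.71 ± 0.078 (-0.41 as the mean of its probes). The basement membrane collagen COL4A1 fell (-0.68), as did the ligand TGFB2 (-0.58, and -0.98 with background correction) and the matrix protein TGFBI (-0.56). YAP and TEAD respond to cell shape and density. Among 28 tested genes of their list, which holds the factors as well as targets, 7 fell and 1 rose. The median was -0.12 (-0.22 with background correction). TGFB2 is on this list too, so it counts in both. EDN1, the precursor of the vasoconstrictor endothelin-1, had 169.9, 172 and 178 in co-culture and 349, 396 and 349 in monoculture. It was lower on every co-culture array, by -1.07 ± 0.082 as a signed difference (adjusted p = 4.7e-09), and by -1.61 with background correction. IGFBP3, which binds insulin-like growth factors, differed by -0.89 ± 0.083, ANKRD1 by -0.40 and NUAK2 by -0.43. NT5E, the enzyme that makes adenosine outside the cell, was the member that rose, by 0.75. CCN1 (-0.32) was called although its groups overlapped, and its call was lost with background correction (adjusted p = 0.17), with array median centring, and without any of 5 of the 6 arrays, taken singly.

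Contractile and actin genes fell in 5 of 25 tested and rose in 0, with a median of -0.14. The shares called over all genes tested were 3.82% lower and 2.83% higher. TPM1, a tropomyosin, differed by -0.67 ± 0.086 (-0.40 as the mean of its probes), the myosin light chain MYL12A by -0.66 ± 0.121, TAGLN2 by -0.50 and the heavy chain MYH9 by -0.34 (not called as the mean of its probes, -0.20, adjusted p = 0.07). THBS1, a matrix glycoprotein, had 377, 376 and 519 in co-culture and 709, 738 and 649.6 in monoculture. All its co-culture arrays were lower, with a difference of -0.74 ± 0.116. Of 28 keratins and epithelial markers, 5 fell (1 with background correction) and 0 rose, while 8 had a positive difference. Among those 8, picked after their values were seen, KRT15 differed by 0.25 (adjusted p = 0.056), KRT18 by 0.15 (adjusted p = 0.40), KRT8 by 0.13 (adjusted p = 0.49) and EPCAM by 0.11 (adjusted p = 0.46), with EPCAM higher on all 3 of its probes. The summed intensity of all 28 keratins and epithelial markers was 42296 to 45677 in co-culture and 47684 to 48365 in monoculture. In bulk RNA, fewer cells of a type and less RNA per cell cannot be told apart, and the part of this shift in the results was not tested. KRT19 (-0.30) and the adhesion molecule CDH1 (-0.36) were among the 5, and both calls were lost with background correction (adjusted p = 0.083 and 0.097) and on leaving out monoculture array 2. Leaving out other single arrays also ended them: monoculture array 1 and co-culture arrays 2 and 3 for KRT19, and monoculture array 3 and co-culture array 1 for CDH1.

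Called interferon response genes were all lower, and those of antigen presentation moved both ways. Of 38 type I interferon response genes, 8 fell and 0 rose, 34 had a negative difference, and the median was -0.13 (-0.21 with background correction, where 5 fell). Of all 13577 genes tested, 3.82% were called lower and 2.83% higher, and 7564 had a negative difference. IFI27, an interferon-induced mitochondrial protein, had 859, 913 and 1014 in co-culture and 1651, 1563 and 1533 in monoculture. Its groups did not overlap, and the difference was -0.77 ± 0.099. IFITM2 (-0.47), IFITM3 (-0.43), which restrict virus entry, and EPSTI1 (-0.42, and -0.70 with background correction) also fell. Of 16 genes of MHC class I presentation, 4 fell and 2 rose. HLA-B differed by -0.41, the peptide-loading protein TAPBP by -0.57 (not called as the mean of its probes, -0.21, adjusted p = 0.064), and HLA-G by 0.43 (0.83 with background correction). HLA genes are near-identical in stretches, so a probe may read several of them.

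NF-kB targets and inflammatory mediators moved both ways, 8 of 33 lower and 4 higher (3.82% and 2.83% over all genes tested), with a median of -0.05. With background correction 6 were lower and 2 higher, with a median of -0.11, and the median was -0.08 with a stricter detection filter and -0.03 with array median centring. UBD, a ubiquitin-like modifier, had 211, 227 and 232 in co-culture and 579.8, 583 and 562 in monoculture. Every co-culture array was lower, and the difference was -1.36 ± 0.093 (adjusted p = 1.0e-09). The cytokine IL32 had 138, 155 and 137 in co-culture and 256, 267 and 232 in monoculture, a difference of -0.81 ± 0.089 (-1.46 with background correction). The chemokine CXCL16 (-0.67), the adaptor TRAF1 (-0.53, with -1.23 after background correction and -0.31 as the mean of its probes), the cytokine LTB (-0.50, with -0.98 after background correction and -0.31 as the mean of its probes) and the inhibitor NFKBIA (-0.31) were also called lower. The called rises were the neutrophil chemokines CXCL2 (0.42), CXCL5 (0.35) and CXCL8, and the iron-binding protein LCN2 (0.40). CXCL8 is also on the ERK list, so it counts in both. The calls of NFKBIA, CXCL2 and LCN2 were lost with background correction (adjusted p = 0.11, 0.11 and 0.064) and each without co-culture array 1. That of CXCL5 was lost as the mean of its probes (0.07, adjusted p = 0.66), that of CXCL2 also without monoculture array 3, and that of NFKBIA also without monoculture arrays 1 or 2 or co-culture array 3.

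**Figure D3:**
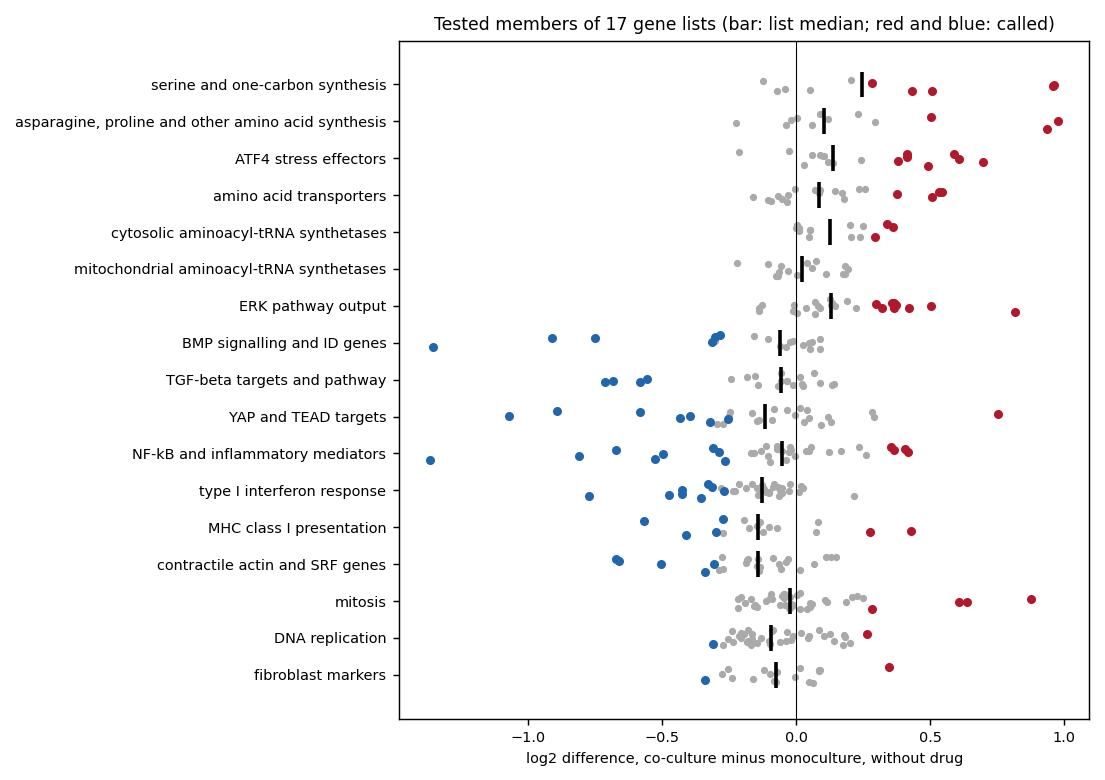
Log2 difference, co-culture minus monoculture, of each tested member (points) of 17 gene lists, with called members in red (higher) or blue (lower) and the list's median as a bar. The called members of the amino acid, ATF4 and ERK lists all lie to the right of 0, and those of the BMP, TGF-beta, interferon and contractile lists to the left.

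Hypoxia genes did not move as 1 group, with 3 of 20 higher and 4 lower (2.83% and 3.82% over all genes tested). HIF1A, the oxygen-regulated factor, had 705, 763 and 801 in co-culture and 438, 413 and 347 in monoculture. The groups did not overlap, and the mRNA difference was 0.93 ± 0.089 (0.56 as the mean of its probes). BNIP3 (-0.40) and ADM (-0.45), which HIF1A induces under low oxygen, fell. The other called rises of the hypoxia list were VEGFA (0.41) and DDIT4 (0.49). Both are also on the ATF4 list, so each counts in both lists. The glucose carrier SLC2A3 rose by 0.48 (0.80 with background correction), and PFKFB4, a regulator of glycolysis, fell (-0.40).

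Of 41 mitosis genes 4 rose and 0 fell, against 2.83% higher and 3.82% lower over all genes. Their median of -0.02 equalled that of all genes at this precision. It changed sign in 3 of 15 alternatives, some of which cannot change a difference. Of 38 DNA replication genes 1 rose and 1 fell, shares near those of all genes, with a median of -0.09. RAD21, a cohesin subunit, differed by 0.88 ± 0.093 (0.35 as the mean of its probes), ECT2, which drives cytokinesis, by 0.61 ± 0.098, and the centrosome kinase NEK2 by 0.64 ± 0.076 (not called as the mean of its probes, 0.23, adjusted p = 0.075). The dimmer probes of RAD21 and NEK2 had the opposite sign, at -0.18 for each gene. The CDK inhibitor CDKN1A fell (-0.38), and PMAIP1, the pro-apoptotic NOXA, rose by 0.82 ± 0.112.

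Several of the largest differences belong to genes with near-identical copies, for which a probe can read more than its named gene. PTMA, a small acidic nuclear protein with many processed copies, had 1495, 1307 and 1102 in co-culture and 689, 677 and 464 in monoculture. The difference was 1.11 ± 0.123, the highest among genes called, and the groups did not overlap. The ribosomal protein pseudogenes RPL23AP64 (1.05) and RPL23AP87 (0.90), the splicing factor gene HNRNPC (0.93, and 0.47 as the mean of its probes) and the tubulin TUBA3D (0.82) also rose. The other HNRNPC probe, of similar brightness (mean log2 9.86 against 9.99), differed by only 0.015. The beta-defensin pair DEFB103A and DEFB103B rose by 0.95 and 0.86, the second by 2.13 with background correction. SNAR-A1, a small non-coding RNA of a multicopy family, had 420.1, 416 and 621 in co-culture and 1178, 1363 and 1178 in monoculture. It was lower on all co-culture arrays, with a difference of -1.37 ± 0.122. The 5S ribosomal RNA gene RNA5S9 (-0.85) and the gonadotropin subunit CGB1 (-0.84) fell. Metallothioneins split, with MT1G (0.49) and MT1E (0.42) called higher and MT1F (-0.55) lower, and the call of MT1E was lost with background correction (0.64, adjusted p = 0.097).

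Other falls were in CADM1, an adhesion molecule (-0.88 ± 0.102), NPPB, a natriuretic peptide (-0.83 ± 0.094), the zinc finger gene CXXC5 (-0.81 ± 0.100), EDN2 (-0.78 ± 0.079), GLIPR1 (-0.78 ± 0.085) and DKK1, a secreted WNT antagonist (-0.65 ± 0.077, and -0.32 as the mean of its probes). The integrin ITGA6 rose by 0.59 (0.97 with background correction) and the matrix protein TNC by 0.47. SNAI2, a repressor of epithelial genes, differed by -0.48, a call lost with background correction (adjusted p = 0.099) and without co-culture array 2 (-0.30, adjusted p = 0.073).

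Fibroblast RNA was looked for, because the fibroblasts shared the dish. Of 28 fibroblast markers, 7 were detected on all co-culture arrays and 9 on all monoculture arrays, and 11 on none of the co-culture arrays and 8 on none of the monoculture arrays. FAP, FBN1, PDGFRA, PDGFRB, POSTN and THY1 were not detected on any of the 6 arrays, and COL3A1 on none of the co-culture arrays. These were picked for that outcome. Other listed markers were detected, also in monoculture, where no fibroblasts were present. Among them, by the most detected probe, COL5A1 was detected on 3 co-culture and 3 monoculture arrays and DCN on 2 and 2. COL1A1 and LUM were each detected on 1 co-culture and 3 monoculture arrays. The summed intensity of the 18 markers tested was 4437 to 4796 in co-culture and 4150.2 to 4252 in monoculture. Without VIM it was 2122 to 2199 in co-culture and 2291 to 2342 in monoculture, and the part of fibroblast RNA in the results was not tested. VIM, a filament protein that HCC827 cells also express, was called higher (0.34 ± 0.092, adjusted p = 0.021), and lost the call with background correction (adjusted p = 0.11) and without any of 4 of the 6 arrays, taken singly. Of 7 blood and endothelial markers tested, 0 were called. Over all genes tested 6.65% were called, so 0 of so few genes is near that share.

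With gefitinib, where co-culture and monoculture were compared on the other 6 arrays, 2117 genes were called higher (15.6%) and 3113 lower (22.9%). The comparisons share no arrays, but both set the co-culture array set against the monoculture one. Of the 384 genes called higher without drug, 259 (67.4%) were also called higher with gefitinib and 22 (5.73%) lower. Of the 519 called lower, 343 (66.1%) were also called lower and 60 (11.6%) higher. The difference of the co-culture difference, with gefitinib minus without, was called for 3009 genes (22.2%), and for 395 of the 903 genes called without drug. It is also the drug difference in co-culture minus that in monoculture. Arrays with and without drug correlated at r between 0.969 and 0.971 in monoculture, and between 0.991 and 0.993 in co-culture. A called change can therefore come from the monoculture arrays. Since many genes named here were taken for a large difference without drug, which enters this contrast with the opposite sign, part of a shrinkage towards 0 comes with the choice. The amino acid genes were among those that differed. ASNS was -0.23 ± 0.077 with gefitinib, against 0.98 without (adjusted p of the change = 3.7e-09), PCK2 was -0.25 against 0.93 (adjusted p = 2.1e-08), and CBS was -0.44 against 0.50 (adjusted p = 1.9e-07). PHGDH and PSAT1 stayed higher with gefitinib, at 0.32 (adjusted p = 0.0034) and 0.57 (adjusted p = 3.9e-06). ID3 was -1.81 with gefitinib, against -1.35 without, whereas ID1 was -0.23 against -0.75 (adjusted p of the change = 0.015 and 0.0014). BNIP3 was 1.19 with gefitinib and -0.40 without (adjusted p = 5.5e-11). PTMA and HIF1A had 1.27 and 1.19 with gefitinib, and the change was not called for either (adjusted p = 0.56 and 0.14).

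**Figure D4:**
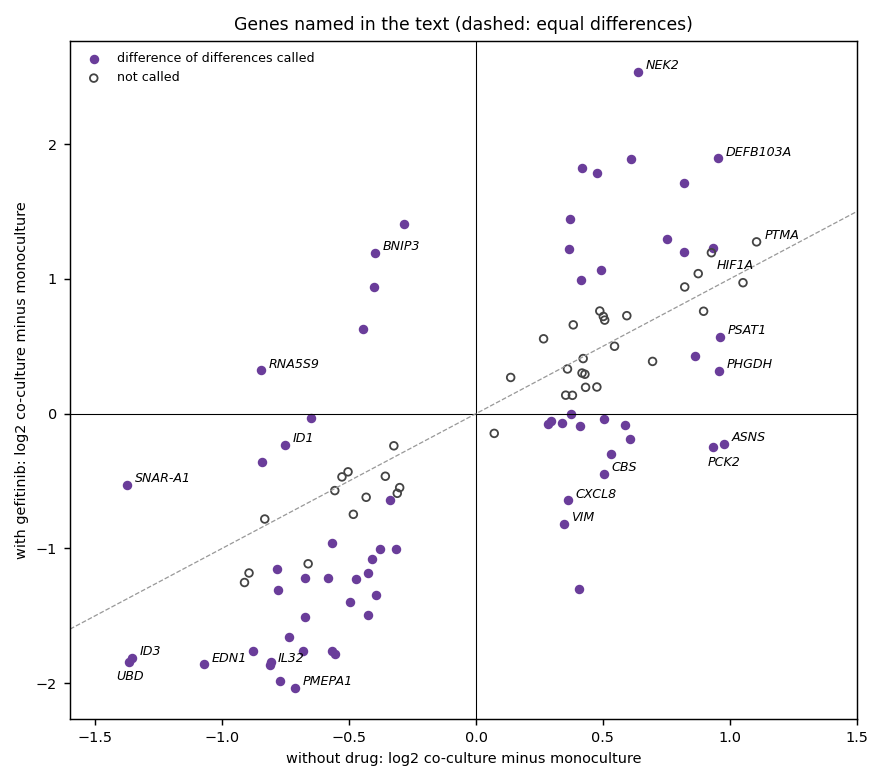
Log2 co-culture minus monoculture without drug (horizontal) and with gefitinib (vertical) for 104 genes named in the text, filled where the difference of the differences was called (67 genes). ASNS and PCK2 lie right of 0 and below it, BNIP3 left of 0 and above it, and PTMA lies near the dashed line of equal differences.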

How the data were processed

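The members, gene lists and tests were chosen with earlier results of these data known. The authors deposited scanner output, an intensity for each probe, with a detection p-value per probe and array named in the file header. The linear scale and the lack of background subtraction are read from the values, with scanner array medians of 99.1 to 109.7. The authors also deposited intensities after between-array normalization (its method is not given in the sources), and log2 of these was the measure tested. Per the labels' protocols, biotin cRNA was made with an Ambion kit. Scanner lines of the co-culture arrays were not in probe order and were given their probes through the normalized table (100% of 48106 were mutual best matches), so their detection calls and background-corrected values rest on that table.

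Of 48107 probes, 30113 had 1 gene symbol in the platform annotation, 8 several and 17986 were unnamed here. Probes with detection p under 0.05 on at least 3 of 12 arrays were kept, and the brightest kept probe stood for its gene. All 12 arrays entered 1 limma model (limma 3.58.1, R 4.3.3) with a mean per group and moderated variances, two-sided, with Benjamini-Hochberg adjustment over 13577 genes. The number of arrays limits the precision. The fit was tested on simulated data with independent arrays and planted changes. These data hold no difference between array sets, so they cannot bear on the confounding in this design.

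Of 45 gene lists, those the results turn on are described. The naming rule took the 15 largest rises and 15 largest falls with non-overlapping groups, up to 6 called members per list and direction (2 where none was called), the fibroblast, blood and endothelial markers, and EGFR, MET, ATF4, HIF1A and MYC, 191 genes in all. The 104 genes named in the text were picked from these after their values were seen, so how far calls held across settings was counted over all 191. Fibroblast markers cited only for detection, and KRT15, KRT18, KRT8 and EPCAM, are outside the 104. Alternatives were background correction with neqc (offset 16), quantile normalization, array median centring, no or a stricter detection filter, the mean of a gene's probes, only the 6 arrays, the replicate number as a block, each array left out, and, added after seeing the data, an intensity trend in the variance.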

Additional observations from a re-analysis of the deposited data

Results flagged for a closer look

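For 67 of the 104 named genes the co-culture difference with gefitinib differed from that without by the test of the difference itself (limma, adjusted p under 0.05), 45 with a more negative and 22 with a more positive value. Over all 13577 genes it was called for 3009 (22.2%), and for 395 of the 903 genes called without drug. The 104 genes were picked after their values were seen, many for a large difference without drug, which enters this contrast with the opposite sign. Values are the log2 difference with gefitinib minus that without. Among ATF4 and amino acid genes they were ASNS -1.20, PCK2 -1.18, CBS -0.95, SLC6A9 -0.83, CEBPG -0.80, DDIT3 -0.67, PHGDH -0.64, SLC3A2 -0.54, CEBPB -0.50, WARS1 -0.40, PSAT1 -0.39, SLC7A5 -0.38, MTHFD1L -0.36, AARS1 -0.35, DDIT4 0.57, VEGFA 0.58. Among genes of BMP, TGF-beta and YAP lists they were PMEPA1 -1.32, COL4A1 -1.08, ANKRD1 -0.95, EDN1 -0.79, BAMBI -0.69, TGFB2 -0.64, ID3 -0.46, ID1 0.52, NT5E 0.55, FST 1.69. Among inflammatory, interferon and antigen presentation genes they were LCN2 -1.70, IFI27 -1.21, EPSTI1 -1.07, IL32 -1.05, CXCL8 -1.01, LTB -0.90, CXCL16 -0.83, IFITM2 -0.75, IFITM3 -0.75, HLA-B -0.67, UBD -0.47, TAPBP -0.39. Among ERK output genes and ErbB ligands they were HBEGF -1.20, ETV5 0.38, DUSP5 0.86, EMP1 1.07, PHLDA1 1.40. Among hypoxia, glycolysis and mitosis genes they were ADM 1.08, ECT2 1.28, PFKFB4 1.34, BNIP3 1.59, NEK2 1.90. Among the other named genes they were MT1F -1.23, VIM -1.16, CXXC5 -1.04, THBS1 -0.92, CADM1 -0.89, CDKN1A -0.63, TPM1 -0.55, GLIPR1 -0.53, DEFB103B -0.43, EDN2 -0.37, MYH9 -0.30, HNRNPC 0.30, CGB1 0.48, DKK1 0.61, SNAR-A1 0.84, TUBA3D 0.89, DEFB103A 0.94, RNA5S9 1.17, TNC 1.31.

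Of 7658 kept probes without 1 gene symbol, which enter no gene-level result, 424 were called higher in co-culture and 96 lower. These calls came from a separate fit of all 25896 kept probes, with its own adjustment. At the gene level, with 1 probe a gene, 384 of 13577 were called higher (2.83%) and 519 lower (3.82%). The named probes of the separate fit were not counted, so the splits are not on like terms. What these probes read was not tested.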

How the results depend on the processing

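Of the 191 genes that the naming rule took, 161 were called, and 76 of these lost the call in at least 1 alternative, while 0 changed sign. Background correction with neqc kept 97 of the 161, array median centring 148, no detection filter 148, the mean of a gene's probes 138, only the 6 arrays 155, quantile normalization 161 and the added intensity trend in the variance 160. Leaving out 1 array kept between 118 and 129. Probes of a gene did not always share a sign. Among genes with over 1 kept probe, all probes had the same sign for 83 of 140 called higher (59.3%). The same held for 120 of 184 called lower (65.2%) and 1671 of 3278 not called (51%). The genes named with values in the text were picked after this was known.

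The 903 calls (384 higher, 519 lower) became 480 with neqc (223 higher, 257 lower), 440 of them shared. Leaving out 1 array gave 531 to 724 calls, 218 to 308 higher and 288 to 419 lower. The lowest total came without monoculture array 3, and without monoculture array 2 or co-culture array 2 it was 541 and 573. With fewer arrays the test has less power, and the cause of the drop with neqc was not tested. The other alternatives gave 815 to 1104 calls, and for the difference of differences every alternative stayed within 1.5 times of 3009. The replicate block gave 965 calls, and the labels do not say whether the numbers pair the arrays. Deviations from the group means correlated at 0.065, 0.010 and -0.029 for same-numbered arrays. For differently numbered arrays they correlated at -0.057 to 0.046. With 3 arrays a group, these deviations are tied to each other, so the values cannot decide whether arrays were paired.

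Of 675 recomputed list medians, 629 kept their sign. Only the 6 arrays, the replicate block and the intensity trend leave every difference as it was. Neither a gene's sign nor a list's could change in these settings, so the count overstates stability. Differences of dim genes appear compressed on the authors' scale, which limits what their sizes show.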
